A study of Rattus norvegicus with 56 samples.

Results

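Potassium channel genes were followed in primary cultures of rat hippocampal neurons that had received repetitive transcranial magnetic stimulation (rTMS). The members are the genes whose symbol starts with Kcn, found through the RefSeq accession of each probe, with the brightest probe standing for a gene and with that probe well above background on at least 3 arrays. A table of RefSeq genes holds 97 such symbols, of which 91 had a probe and 84 passed, among 13888 genes with a tested probe in the whole data set. The 7 genes with a probe that did not pass were Kcne1 (2 arrays above background), Kcng4 and Kcnmb3 (1 array each), and Kcna10, Kcne4, Kcnj15 and Kcnmb1 (0 arrays). The members closest to the limit were Kcnj1 on 3 arrays, Kcnj2 and Kcnk18 on 4 and Kcne3 on 5. At the other end, 59 members were well above background on all 55 arrays used.

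The cultures came from the hippocampi of Sprague-Dawley rat embryos (E18), and no genotype or drug set the groups apart. Dishes over the inverted coil received evenly spaced single pulses at 1 Hz, or bursts of pulses known as intermittent theta burst stimulation (iTBS), and sham dishes stood in the incubator with the coil at a distance. RNA was taken once stimulation ended (0 h) and at 2, 8, 24 or 48 h, giving 3 or 4 arrays per group (2 for 1 Hz at 2 h), and a further 4 cultures at 0 h were untreated controls. From the number in each sample description the arrays were put in 4 culture series, here called A, B, C and D. The numbers ran from 1 to 18 in A, 22 to 36 in B, 37 to 54 in C and D1 to D15 in D. The labels do not say what the number is, and the cuts between A, B and C are a reading of it. Each series gave at most 1 array to a stimulated or sham group. The labels do not say whether a series is a separate preparation of cells, so p-values measure the spread between these arrays and series, which may be technical in part. The dishes hold glia besides neurons, and RNA was taken from whole dishes, so fewer cells of a type and less RNA per cell cannot be told apart.

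Potassium channels let potassium leave the cell, which repolarizes the action potential, sets the resting potential and limits firing. The voltage-gated (Kv) family opens on depolarization, inward rectifiers (Kcnj) and two-pore channels (Kcnk) carry the resting and leak currents, and calcium- or sodium-activated channels answer to ions that enter during activity. Silent Kv subunits and auxiliary subunits have no current of their own and change the gating or the surface delivery of the channels they join.

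Levels are given as scaled log2 signals, in which the mean of each array is 0 and a step of 1 is a doubling of the signal at the usual spread. They can be compared between arrays for 1 probe, not between probes. The neuronal label was checked against marker genes. All 5 neuronal markers were well above background on every array, and so were 6 of 6 astrocyte markers and 6 of 6 of the oligodendrocyte lineage. The 75th percentile of the signal ran from 1896 to 18416 between arrays, and the share of spots well above background from 66.1% to 81.8%, with a median of 75.3% in series D against 71.6% to 72.5% in the others. The lists of other cell types differed between the series. The oligodendrocyte lineage list had a mean level of 3.94 in A, 5.09 in B, 6.05 in C and 2.50 in D, the choroid plexus list 1.39, 3.46, 4.23 and 2.50, the microglia list 0.29, -0.86, -0.99 and -0.16, and the mural and fibroblast list 1.13, 0.89, 1.86 and 2.43. The genes of the mural and fibroblast list did not order the series alike. Col1a1 and Acta2 were highest in D (7.11 and 0.53), Pdgfrb and Rgs5 in C (4.02 and -3.23) and Dcn in A (5.21). The part of the cells of these lists in the values below was not tested.

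Whether a stimulation protocol changed potassium channel transcripts was asked at each time against the sham arrays of the same time. No member passed the threshold: 0 of 84 had an adjusted p under 0.05 in any of the 10 comparisons (limma over 35694 probes, Benjamini-Hochberg), and the smallest adjusted p of a member was 0.99976. Among all probes the share that passed was 0% at 0, 24 and 48 h for 1 Hz and at 0, 2, 24 and 48 h for iTBS, 0.00560% for 1 Hz at 2 h and for iTBS at 8 h, and 0.00280% for 1 Hz at 8 h. At an unadjusted p under 0.05, 1 Hz gave 1 member at 0 h (0.899% of all probes), 1 member at 2 h (1.11%) and 1 member at 8 h (1.32%), then 0 members at 24 h (2.29%) and 2 members at 48 h (1.47%). For iTBS the counts were 0 members at 0 h (3.94% of all probes), 2 members at 2 h (2.12%), 1 member at 8 h (0.883%), 0 members at 24 h (0.552%) and 1 member at 48 h (1.78%). Averaged over the 5 times, both protocols gave 0 members past the threshold (0% of all probes) and 0 at an unadjusted p under 0.05 (0.692% for 1 Hz and 0.667% for iTBS). Arrays of 1 series deviated together, and with the culture series as a block, or the series at each time, 0 members passed in each of these comparisons too. The standard error of a member's difference ran from 0.15 to 1.07 log2 units over the 10 comparisons. It is that of the fit without a series term, so the spread between series is part of it. Small shifts were not detectable in that fit with this number of arrays. Standard errors with the series as a block are not given.

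The members with the smallest p show how the arrays lay. Kcna7, a Kv1 channel, had the smallest p at 8 h for both protocols, which share their sham arrays. Its levels were -2.66, -2.25 and -2.24 in the sham arrays, -1.74, -1.54, -2.00 and -1.61 in the 1 Hz arrays, and -1.55, -2.03 and -1.19 in the iTBS arrays. All stimulated arrays lay above all sham arrays, by 0.67 ± 0.26 log2 units for 1 Hz (SE, unadjusted p = 0.013, limma) and 0.79 ± 0.27 for iTBS (unadjusted p = 0.0060, limma), and neither passed after adjustment over all probes. Under another background correction (normexp) both differences were 0.16. Kcne2, an accessory subunit of Kv channels, read 2.90, 2.95 and 2.92 in sham at 48 h and 2.01, 1.46, 3.11 and 2.22 after iTBS, where 3 of 4 arrays were lower (-0.72 ± 0.31, unadjusted p = 0.026, limma). The lowest array was of series B, which the sham group lacks, and within the 3 shared series the differences ran from -0.88 to 0.16 with a mean of -0.48. Kcnab2, a cytoplasmic beta subunit of Kv1 channels, read -1.23, -1.01, -0.51 and -0.33 in sham at 2 h and -1.05 and 2.14 after 1 Hz. Its difference of 1.31 ± 0.54 rested on 1 array: it was -0.28 without 1 Hz 2 h replicate 3 and 2.91, then past the threshold, without 1 Hz 2 h replicate 1.

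At the other times the smallest p belonged to Kcnab3 at 0 h (-0.76 ± 0.37 log2 units), Kcnj11 at 24 h (0.56 ± 0.33) and Kcnj9 at 48 h (-0.55 ± 0.23) for 1 Hz. For iTBS it belonged to the sodium-activated channel gene Kcnt1 at 0 h (-0.64 ± 0.33), to the mechanosensitive leak channel gene Kcnk4 at 2 h (-0.69 ± 0.32) and to Kcna5 at 24 h (1.09 ± 0.78). These are differences of scaled log2 signals with their SE, and none passed after adjustment. More members lay above than below sham at 24 h, 65 of 84 for 1 Hz against 56.7% of all probes and 67 of 84 for iTBS against 54.1%, with median differences of 0.16 and 0.11 log2 units against 0.05 and 0.02 over all probes. Under the other scalings these counts ran from 58 to 70 and from 51 to 69. Both protocols share the 3 sham arrays of that time. At 8 h the counts leaned the same way, with 53 of 84 for 1 Hz (53.4% of all probes) and 62 of 84 for iTBS (56.1%). Under the other scalings these ran from 49 to 56 and from 50 to 65. At 0 h for both protocols, and at 48 h for iTBS, the counts went the other way. For 1 Hz at 0 h, 29 of 84 lay above sham (46.5% of all probes). For iTBS it was 32 at 0 h (43.2%, and 22 to 51 under the other scalings) and 30 at 48 h (45.7%). The groups were not alike in series: 1 Hz at 24 h held A, C and D where sham held B, C and D. At 8 h 1 Hz held A, which sham lacked. At 0 h 1 Hz lacked A, which sham held, and at 48 h sham lacked B, which iTBS held. Only 24 of 84 members were higher in B than in A (median difference -0.22 log2 units). For these groups series and protocol cannot be told apart. For iTBS at 0, 8 and 24 h the series were those of sham.

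**Figure D1:**
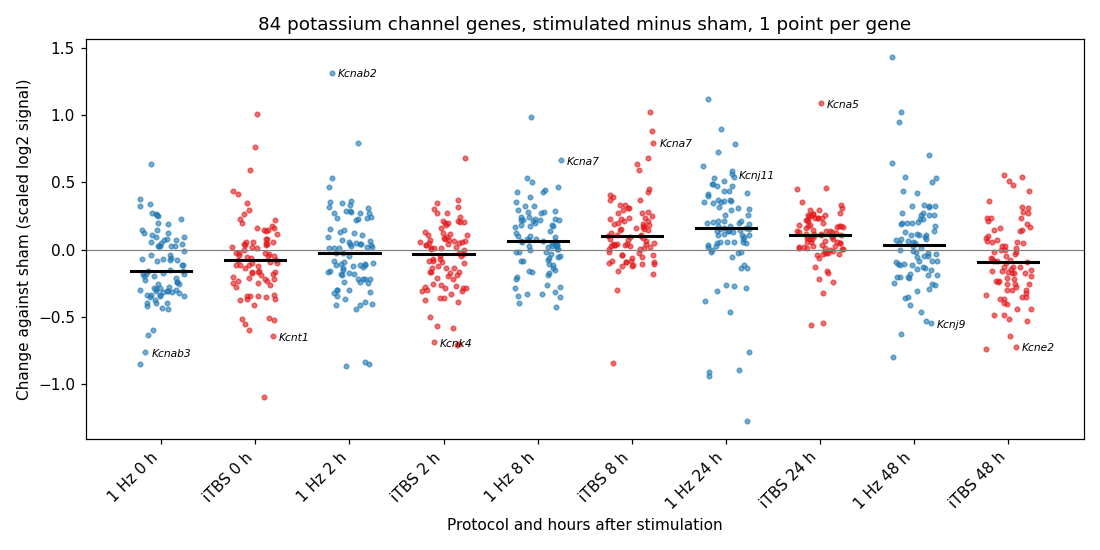
Difference from sham at the same time in scaled log2 signal (vertical axis) for the 84 potassium channel genes in the 10 comparisons (horizontal axis), 1 point per gene, with a bar at the median of the genes and the gene of smallest unadjusted p named. The medians lie between -0.16 and 0.16, and no point passed an adjusted p of 0.05.

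The effect of a protocol did not pass a test of change between times either. For 1 Hz, 0 members passed and 1 had an unadjusted p under 0.05, Kcnj11 at 0.042, where 0.868% of all probes did. For iTBS, 0 passed and Kcna7 alone was under 0.05, at 0.045, where 1.48% of all probes were. A direct test of 1 Hz against iTBS at any time gave 0 members past the threshold and 0 at an unadjusted p under 0.05 (0.838% of all probes). Untreated controls were compared with sham at 0 h, to see the effect of handling, though the untreated arrays are of series A and C alone and the sham arrays of all 4: 0 of 84 members passed (0.00280% of all probes) and 2 had an unadjusted p under 0.05 (2.43%). The smallest was that of the inward rectifier gene Kcnj2, with -4.75, -4.67, -4.90 and -4.48 in untreated and -2.91, -3.15, -4.46 and -2.86 in sham arrays, a difference of -1.36 ± 0.45 near the background of the array, and -0.20 under normexp.

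Many members differed between the culture series. With the arrays of each series averaged at each time, 45 of 84 members (53.6%) differed between the 4 series at an adjusted p of 0.05 (limma F test), where 48.4% of all probes did. For 3 of the 45, Kcna5, Kcnj2 and Kcnk15, fewer than 3 arrays outside D were well above background. They thus met the filter through the series where they were high, and 42 remain without them. All 3 are among those highest in D, and they enter the counts for D below wherever they passed. The filter favoured these counts for D to that extent. The range between the highest and the lowest series had a median of 0.68 log2 units over the members and 0.62 over all probes, and 55 of 84 members ranged more over series than over times, as did 67.8% of all probes. Of the 45, 25 were highest in D (18.0% of all probes passed and were highest there), 10 in A (10.5%), 5 in B (9.74%) and 5 in C (10.2%). The lowest level was in C for 18 (10.2% of all probes), in B for 17 (12.8%), in D for 8 (14.2%) and in A for 2 (11.2%). In the pairwise comparisons D lay apart most often: 31 members were higher and 7 lower in D than in C (15.6% and 12.7% of all probes), 27 higher and 10 lower than in B (20.3% and 14.9%), and 16 higher and 10 lower than in A (14.6% and 11.9%). Among the other series, C was higher than A for 4 and lower for 17 (11.8% and 11.5%), B was higher than A for 1 and lower for 8 (6.44% and 6.30%), and C was higher than B for 4 and lower for 3 (6.60% and 3.82%). The split moved with the scaling for 3 of these pairs: with the 75th percentile it was 3 higher and 4 lower for B against A and 2 and 4 for C against B, and with normexp background 11 and 11 for D against A and 3 and 4 for C against B. Under normexp background 21 of the 45 differences were smaller by over 1.5 times, none reversed, and 4 no longer passed (Kcnd1, Kcnj2, Kcnj5 and Kcnk4). Without series D, 12 members differed among A, B and C, and without iTBS 0 h replicate 1 the count for B against A was 5.

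**Figure D2:**
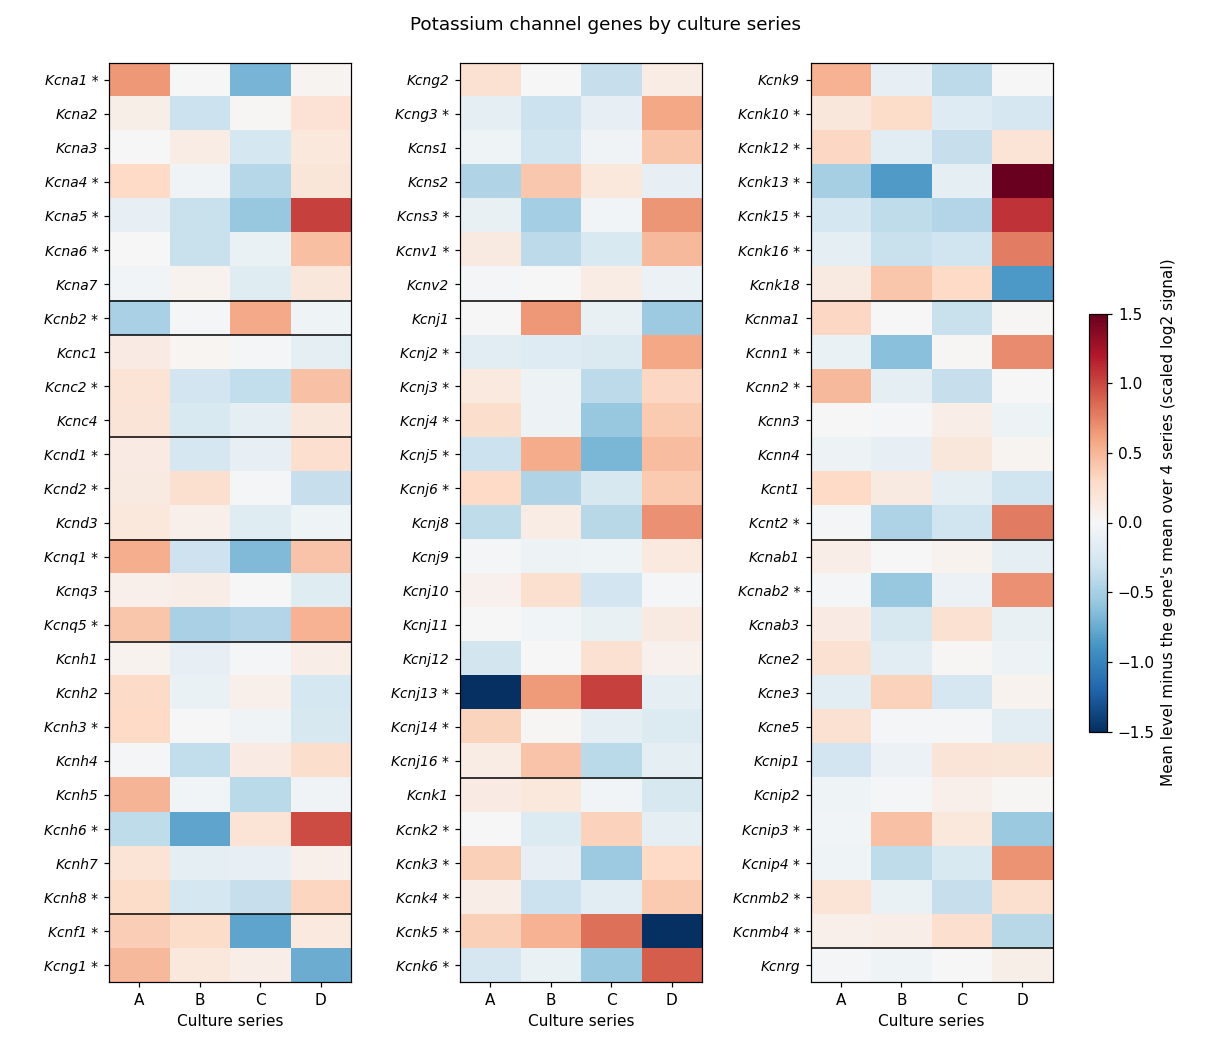
Colour gives each gene's mean scaled log2 signal in a culture series (columns A to D) minus its mean over the 4 series, for 81 of the 84 genes in 3 blocks with black lines between subfamilies, and an asterisk marks the 44 shown genes with an adjusted p under 0.05 in the test between series. Of the marked genes, 24 have their highest level in D and 8 their lowest. Among the 24 are Kcna5, Kcnj2 and Kcnk15, which met the filter through D.

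Below, a level of a series is its mean ± SD over 5 time points (n = 5), a difference between series is in log2 units ± SE, and adjusted p-values are from limma over all 35694 probes.

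Two-pore leak channels carry the resting conductance and had 10 of 13 members past the test between series. Kcnk13, a halothane-inhibited channel known from microglia, was highest in D, at 3.46 ± 0.13 against 1.48 ± 0.51 in A, 1.13 ± 0.45 in B and 1.83 ± 0.09 in C. Its 15 D arrays ran from 3.13 to 3.76 (median 3.47), and the highest array of any other series reached 2.22 (2.23 with untreated controls), so D did not overlap the rest (D minus B 2.33 ± 0.19, adjusted p = 4.1e-07). A second probe of Kcnk13 gave 0.92 in the same direction without passing (adjusted p = 0.074). The mean of the microglia list was higher in A than in D, but its genes did not order the series alike. C1qb was at 2.1 in A, 0.7 in B, 0.3 in C and 1.8 in D, and Cx3cr1 at 4.6, 5.7, 4.9 and 3.8. The part of microglia in the Kcnk13 values was not tested. Kcnk5, an acid-sensitive channel, was lowest in D, with arrays from -0.84 to 0.44 (median 0.02) against 1.21 to 2.80 in A, 1.24 to 3.11 in B and 2.34 to 2.66 in C. Again D stood clear of the rest, by -2.54 ± 0.25 against C (adjusted p = 5.3e-06). The oligodendrocyte lineage and cycling lists were also lowest in D, the cycling list at 4.10 against 6.08 to 6.43, and their part in the Kcnk5 values was not tested.

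Kcnk15, which gives no current of its own in most assays, was well above background on 7 of 15 D arrays and on 0 of 36 arrays of the other series, with means of -2.92 ± 0.43 in D and -4.28 to -4.46 elsewhere. It met the filter through D alone, so its call there was favoured. On the other D arrays and in A, B and C its signal was not well above background, so the size of the difference is uncertain. Kcnk16, known from the pancreas, was at -0.74 ± 0.19 in D against -1.65 to -1.85 (D minus B 1.11 ± 0.15, adjusted p = 6.1e-05). Kcnk6 was at 1.90 ± 0.78 in D against 0.43 ± 0.24 in C (adjusted p = 0.00046), with D arrays from 1.02 to 2.93, but a second Kcnk6 probe differed by 0.08 and did not pass (adjusted p = 0.36). The mechanosensitive Kcnk4 was also highest in D (-0.72 ± 0.36) and lowest in B (-1.44 ± 0.21), while its relative Kcnk2 was highest in C (4.36 ± 0.08) and lowest in B (3.81 ± 0.21). Kcnk12, the silent relative of Kcnk13, was at 5.61 ± 0.16 in A and 4.96 ± 0.25 in C, with D at 5.50 ± 0.11. The acid-sensitive Kcnk3 was at -0.65 ± 0.70 in A and -1.56 ± 0.25 in C. Kcnk10 was at 3.97 ± 0.33 in B and 3.46 ± 0.30 in D, a second probe of Kcnk10 ran the other way, and its call was lost without 1 Hz 48 h replicate 2 or iTBS 2 h replicate 3. Kcnk1, Kcnk9 and Kcnk18 did not pass: Kcnk1 was at 5.34 to 5.74 in all series, though its other probes passed with the opposite direction (-0.31 and -0.77 for B minus D), and the acid-sensitive Kcnk9 at -2.03 ± 0.97 in A and -2.94 ± 0.27 in C.

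**Figure D3:**
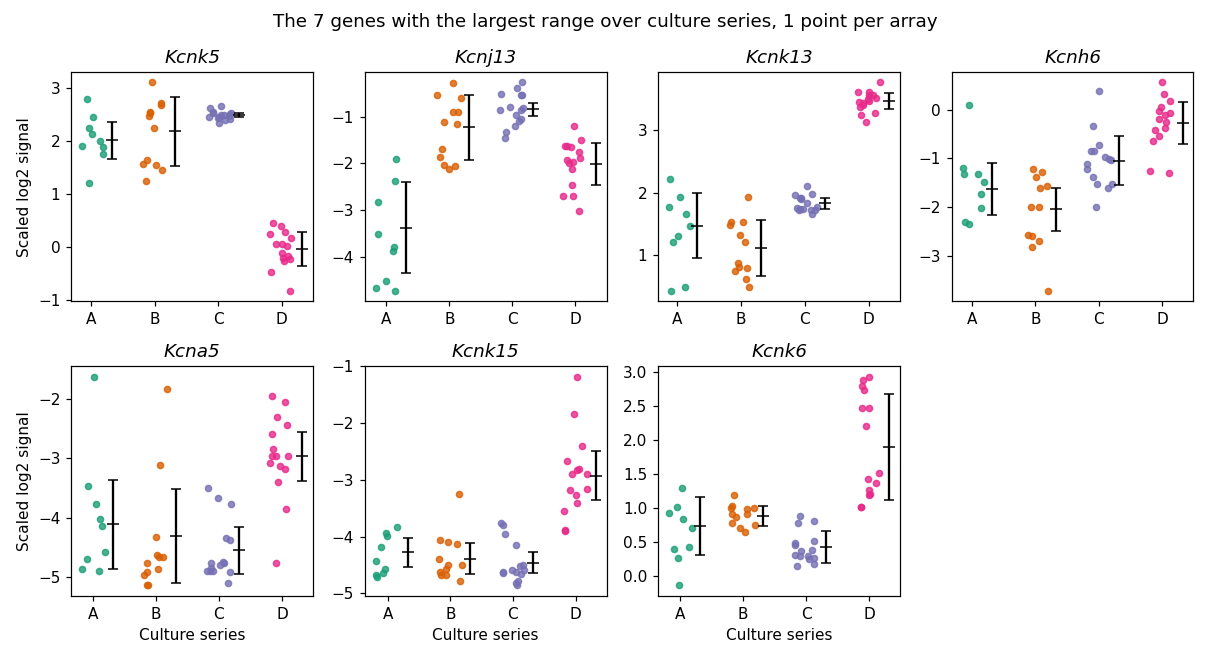
Scaled log2 signal (vertical axis) of the 7 genes with the largest range over series among those past the test, with 1 point per array by culture series A to D and bars for the mean ± SD over 5 time points. For Kcnk13 every D array (3.13 to 3.76) lies above all others, and for Kcnk5 every D array (at most 0.44) lies below all others. For Kcnk15 and Kcna5 outside D, and Kcnj13 in A, most points are not well above background.

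Inward rectifiers, which pass current more easily inward and hold the resting potential, had 8 of 14 members past the test. Kcnj13, known from the choroid plexus and other epithelia, was at -3.38 ± 0.98 in A, -1.23 ± 0.69 in B, -0.84 ± 0.15 in C and -2.01 ± 0.45 in D. It was well above background on 2 of 9 A arrays, 11 of 12 in B, 15 of 15 in C and 14 of 15 in D, so most of the A signal is at background and the distance from A is uncertain. Between C and D, where it was measured, D minus C was -1.17 ± 0.33 (adjusted p = 0.017). The choroid plexus list, of which Ttr and Folr1 were tested, had its series in the same order, though Ttr alone was lowest in D (4.29 in A, 6.27 in B, 7.53 in C and 4.14 in D), and its part in the Kcnj13 values was not tested. The G-protein-gated subunit genes Kcnj3 and Kcnj6, which answer to inhibitory transmitters, were both highest in D, Kcnj3 at 3.34 ± 0.19 against 2.64 ± 0.09 in C and Kcnj6 at 0.86 ± 0.22 against 0.02 ± 0.25 in B. Kcnj5, of the same group, was at -2.74 ± 0.94 in B and -3.99 ± 0.55 in C, on 16 arrays above background in all, and lost its call in 21 of the 55 settings that left out 1 array. The neuronal Kcnj4 was at 2.34 ± 0.43 in D and 1.38 ± 0.20 in C. Kcnj14 was highest in A (4.43 ± 0.22) and lowest in D (3.90 ± 0.18), and Kcnj16, the partner of the glial Kcnj10, was highest in B (-0.18 ± 0.50) and lowest in C (-1.01 ± 0.42). Kcnj2 was above background on 4 arrays, all in series D, through which alone it met the filter, and no fold is given against the other series, where its signal was not well above background. Kcnj1, Kcnj8, Kcnj9, Kcnj10, Kcnj11 and Kcnj12 did not pass, with Kcnj10 at -2.55 to -2.03 and Kcnj9 at 0.46 to 0.68 in the 4 series.

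Among the Kv1 genes, whose channels sit on axons and set the threshold and the width of the action potential, 4 of 7 passed. Kcna1 was highest in A (6.01 ± 0.77) and lowest in C (4.67 ± 0.21), with arrays from 5.03 to 7.35 in A and from 4.35 to 4.99 in C, which did not overlap (C minus A -1.34 ± 0.20, adjusted p = 0.00038). Kcna4, which gives a fast inactivating current, had the same order at the ends, 3.55 ± 0.42 in A and 2.82 ± 0.11 in C. Kcna5 was above background on 9 arrays, 7 of them in D, with means of -2.96 ± 0.41 in D and -4.11 to -4.55 elsewhere. In C 0 of 15 arrays were above background, and in D not all were, so the size of the difference is uncertain. Kcna6 was at 4.67 ± 0.08 in D and 3.89 ± 0.22 in B. Kcna2, Kcna3 and Kcna7 did not pass, with Kcna2 at 2.88 to 3.42.

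In Kv2, which carries the delayed rectifier of the cell body, Kcnb2 was at 3.29 ± 0.10 in C and 2.25 ± 0.42 in A (1.05 ± 0.26, adjusted p = 0.011). In Kv3, which lets neurons fire fast, Kcnc2 was at 2.07 ± 0.16 in D and 1.27 ± 0.32 in C (0.81 ± 0.15, adjusted p = 0.0011), while Kcnc1 (2.05 to 2.32) and Kcnc4 did not pass. In Kv4, the dendritic A-type current, Kcnd1 was at 3.31 ± 0.26 in D and 2.81 ± 0.14 in B, and Kcnd2 at 5.29 ± 0.41 in D and 5.87 ± 0.17 in B. One of the other Kcnd2 probes gave the same direction and the other did not, and Kcnd3 did not pass with its brightest probe (4.47 to 4.81, A above C by 0.34), while its other probes passed with 1.35 (adjusted p = 0.00028) and 0.79 (adjusted p = 0.025). Neuronal Kv7 channels carry the muscarine-sensitive current. Of the Kv7 genes, Kcnq5 was at 0.18 ± 0.22 in D and 0.08 ± 0.25 in A against -0.83 ± 0.54 in B and -0.78 ± 0.14 in C (D minus B 1.00 ± 0.16, adjusted p = 0.00026). Kcnq1 also read higher in A and D (0.47 ± 0.53 and 0.36 ± 0.21) than in B and C (-0.38 ± 0.82 and -0.74 ± 0.10). The brightest Kcnq3 probe was at 4.04 to 4.33 and did not pass, being 0.29 higher in B than in D, while its other probe passed (adjusted p = 0.00044) and ran the other way by -1.04.

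The Kcnh genes hold the EAG, ERG and ELK channels, and 3 of 8 passed. Kcnh6, an ERG channel, was at -0.28 ± 0.43 in D, -1.05 ± 0.50 in C, -1.63 ± 0.54 in A and -2.05 ± 0.44 in B, and D minus B was 1.77 ± 0.14 (adjusted p = 3.8e-07). Kcnh3, an ELK channel of the forebrain, was at 6.57 ± 0.21 in A and 6.03 ± 0.20 in D, and Kcnh8 at -1.24 ± 0.27 in D and -1.90 ± 0.26 in C, a call lost without 1 Hz 48 h replicate 2. Kcnh1, Kcnh2, Kcnh4, Kcnh5 and Kcnh7 did not pass, and Kcnh1 (4.29 to 4.51) and Kcnh7 (1.17 to 1.53) were among the even ones. Of the 9 silent modifier genes 5 passed. Kcng1 was lowest in D, at 4.41 ± 0.20 against 5.64 ± 0.29 in A (-1.23 ± 0.14, adjusted p = 1.6e-05), whereas Kcns3 (0.68 ± 0.10), Kcnv1 (1.28 ± 0.08) and Kcng3 (-0.86 ± 0.32) were highest in D and lowest in B, at -0.49 ± 0.34, 0.40 ± 0.40 and -1.76 ± 0.15. Kcnf1 was lowest in C, at -0.55 ± 0.19 against 0.62 ± 0.28 in A (-1.17 ± 0.17, adjusted p = 0.00027), and Kcng2, Kcns1, Kcns2 and Kcnv2 did not pass.

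Calcium- and sodium-activated channels had 3 of 7 past the test. Kcnn1 and Kcnn2, small-conductance channels of the afterhyperpolarization, were highest in different series: Kcnn1 was highest in D (0.13 ± 0.11 against -1.22 ± 0.43 in B, adjusted p = 1.9e-05) and Kcnn2 highest in A (4.69 ± 0.21 against 3.86 ± 0.15 in C, adjusted p = 0.0013). Kcnt2 was at 2.28 ± 0.53 in D and 1.03 ± 0.37 in B. Kcnma1, the large-conductance calcium-activated channel, was at 1.33 to 1.98 and did not pass, although another probe passed with 0.95 for A minus C (adjusted p = 0.00064). Nor did the brightest probes of Kcnn3 (2.10 to 2.27), Kcnn4 and Kcnt1 pass. Among 12 auxiliary genes 5 passed. The beta subunit gene Kcnab2 was at -0.41 ± 0.49 in D and -1.66 ± 0.35 in B (1.25 ± 0.17, adjusted p = 6.1e-05). The Kv4-binding calcium sensors went both ways, Kcnip4 highest in D (0.30 ± 0.20 against -0.76 ± 0.61 in B) and Kcnip3 lowest in D (-0.39 ± 0.23 against 0.61 ± 0.55 in B). Kcnmb4, the neuronal beta subunit of the large-conductance channel, was at 5.88 ± 0.20 in D and 6.55 ± 0.20 in C, and Kcnmb2 at 3.21 ± 0.11 in D and 2.62 ± 0.08 in C, a call lost without sham 2 h replicate 1, sham 48 h replicate 1, 1 Hz 24 h replicate 1, iTBS 0 h replicate 3 or iTBS 2 h replicate 3. Kcnip1 (4.36 to 4.84), Kcnip2, Kcnab1 (3.61 to 3.86), Kcnab3, Kcne2, Kcne3 and Kcne5 did not pass, nor did Kcnrg, which encodes a regulator and no channel (-1.59 to -1.43).

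Where a gene that differed between series had other tested probes, 14 of 16 such probes gave the same direction and 9 also passed. Of the 18 other probes of genes that did not pass, 9 did, from 7 genes (Kcnd3, Kcne2, Kcnip2, Kcnk1, Kcnma1, Kcnq3 and Kcnt1), 5 of them in the direction of the brightest probe. Called by any of its probes, 52 of 84 genes differed between series. This rule gives genes with more probes more chances. Its share over all genes was not computed, so the count has no background to be read against. The arrays of D lay on all 7 slides beside those of the other series. A, B and C shared no slide with each other, so in the main fit differences among them cannot be told apart from slide. A fit with the slide as a block ties them together through D alone. With that block Kcnk5 (-3.10), Kcnk13 (2.16), Kcnh6 (1.61), Kcna5 (1.54) and Kcnk6 (2.21) passed for the same pairs of series. Kcnb2, Kcnj5 and Kcnn2 no longer passed.

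Time after stimulation was tested over the same averages with the series as a term. Sham dishes, which were not stimulated, were taken at every time and are part of these averages. Untreated arrays were taken at 0 h alone, so handling and age of the culture cannot be told apart. Within each series the arrays at 0 h lay on other slides than those at 24 and 48 h. Slide and time thus cannot be told apart within a series. Of the 84 members 6 (7.14%) differed between times at an adjusted p of 0.05 (limma F test), where 4.52% of all probes did: Kcnh6, Kcnip3, Kcnn4, Kcna1, Kcnt1 and Kcne2. At 2 and 8 h, 0 members and 0% of all probes passed against 0 h, and 1.34% and 4.98% of all probes had an unadjusted p under 0.05. At 24 h, 2 members were higher (0.868% of all probes) and 0 lower (0.263%), and at 48 h, 4 were higher (4.08%) and 1 lower (1.97%). At 48 h the median change over the members was 0.07 log2 units, with 47 of 84 higher, against -0.04 and 45.6% over all probes.

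The calls at 24 h were Kcnh6 and Kcnip3, and those at 48 h Kcnh6, Kcnip3, Kcna2, Kcna5 and Kcne2. The promoter windows of the members that rose are shown because they rose together at 48 h, from RefSeq on the assembly GRCr8, 250 bases before to 50 after the start of the gene and 5′ to 3′ on the gene's strand. Kcne2 had no entry. Capitals mark the letters GGGCGG (a GC box) and TGACG (a short form of the cyclic AMP response element) or their reverse complements CCGCCC and CGTCA.
Kcnh6, chr10:91449401-91449700, plus strand: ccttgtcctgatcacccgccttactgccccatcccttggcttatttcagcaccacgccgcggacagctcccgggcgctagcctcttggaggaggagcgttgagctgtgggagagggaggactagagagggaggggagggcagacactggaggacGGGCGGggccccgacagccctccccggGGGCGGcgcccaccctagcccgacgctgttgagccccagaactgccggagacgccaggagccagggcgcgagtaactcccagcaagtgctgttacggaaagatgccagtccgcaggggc
Kcnip3, chr3:135195361-135195660, minus strand: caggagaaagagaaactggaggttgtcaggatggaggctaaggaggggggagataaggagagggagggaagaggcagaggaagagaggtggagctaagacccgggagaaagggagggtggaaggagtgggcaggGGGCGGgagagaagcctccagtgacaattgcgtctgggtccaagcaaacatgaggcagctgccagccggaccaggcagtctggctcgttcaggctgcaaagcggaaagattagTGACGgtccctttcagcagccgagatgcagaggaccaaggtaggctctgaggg
Kcna2, chr2:197393280-197393579, plus strand: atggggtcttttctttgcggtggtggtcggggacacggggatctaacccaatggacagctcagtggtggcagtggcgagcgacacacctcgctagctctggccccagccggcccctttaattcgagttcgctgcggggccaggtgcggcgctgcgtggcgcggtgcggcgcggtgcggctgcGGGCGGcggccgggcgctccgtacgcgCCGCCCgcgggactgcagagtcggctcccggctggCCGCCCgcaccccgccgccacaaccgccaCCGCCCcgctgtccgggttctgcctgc
Kcna5, chr4:161043760-161044059, minus strand: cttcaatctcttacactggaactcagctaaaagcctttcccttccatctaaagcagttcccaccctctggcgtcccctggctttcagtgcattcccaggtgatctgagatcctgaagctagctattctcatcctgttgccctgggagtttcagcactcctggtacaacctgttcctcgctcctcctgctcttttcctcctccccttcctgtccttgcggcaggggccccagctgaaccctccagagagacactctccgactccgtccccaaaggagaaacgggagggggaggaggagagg

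The GC box stood 2 times in the Kcnh6 window, 1 time in that of Kcnip3, 4 times in that of Kcna2 and 0 times in that of Kcna5, and the short element stood 1 time, in the Kcnip3 window. The E box CACGTG and the TATA box TATAAA, searched on both strands, were in none of the 4 windows, and no matches overlapped. Over 33469 promoter windows of the same length, 33.1% held the GC box, 21.2% the short element, 6.4% the E box and 14.2% the TATA box. Over 61 windows of 55 members the shares were 54.1%, 18.0%, 3.3% and 3.3%, beside a median GC content of 62.3% for members and 51.7% for all windows. The 4 windows had GC contents of 67.7% (Kcnh6), 59.0% (Kcnip3), 73.3% (Kcna2) and 56.3% (Kcna5).

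Kcnh6, the ERG channel gene, rose at 24 and 48 h. Its arrays ran from -3.72 to -0.11 at 0 h (median -1.39, n = 11) and from -1.99 to 0.56 at 48 h (median -0.34, n = 11), which overlapped over the series. Within series it was higher in 4 of 4, by 0.77 ± 0.16 at 24 h (adjusted p = 0.034, limma) and 0.93 ± 0.16 at 48 h (adjusted p = 0.0058, limma). Within the series held at both times the mean change at 48 h was 0.95 ± 1.24 in sham (SD, 3 series), 0.67 ± 1.10 in 1 Hz (3 series) and 0.85 ± 0.61 in iTBS (4 series). Under normexp background the change was 0.27 at 24 h, which did not pass (adjusted p = 0.12, limma), and 0.40 at 48 h, which did (adjusted p = 0.015, limma). A second Kcnh6 probe, above background on 4 arrays, changed by 0.34 and did not pass.

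Kcnip3 encodes a calcium sensor that binds Kv4 channels and also acts as a transcriptional repressor. It ran from -0.51 to 0.28 at 0 h (median -0.17, n = 11) and from -0.57 to 1.31 at 48 h (median 0.90, n = 11). It was higher in 4 of 4 series, by 0.86 ± 0.19 at 24 h (adjusted p = 0.048, limma) and 0.89 ± 0.19 at 48 h (adjusted p = 0.018, limma), and a second Kcnip3 probe gave 0.89 at 48 h and also passed. Within the series held at both times the mean change at 48 h was 0.38 ± 0.75 in sham (SD, 3 series), 0.94 ± 0.52 in 1 Hz (3 series) and 1.05 ± 0.51 in iTBS (4 series), and, as given above, no difference between protocols passed. Under normexp background the Kcnip3 change was 0.55 at 48 h and still passed. Its call at 24 h was lost under quantile normalization (adjusted p = 0.0505), with the deposited z-scores (0.052) and under normexp (0.061), and Kcnt1 passed at 24 h under quantile normalization (0.048, all limma). The call at 24 h was also lost without any 1 of 20 arrays for Kcnip3 and of 9 for Kcnh6.

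Kcna2, an axonal Kv1 channel, rose at 48 h, from 2.49 to 3.20 at 0 h (median 2.98) to 2.57 to 5.13 at 48 h (median 3.74), by 0.82 ± 0.18 and in 4 of 4 series (adjusted p = 0.020, limma). This call was lost without 1 Hz 48 h replicate 2 (0.72), and a second Kcna2 probe changed by 0.06. Kcna5, near background, was well above it on 1 of 11 arrays at 0 h and 4 of 11 at 48 h, so most of the 0 h signal is at background and the size of the change, 1.10 ± 0.27, is uncertain. It was higher in 4 of 4 series (adjusted p = 0.030, limma). Under normexp background its change was 0.14 and did not pass. Its call was also lost without sham 24 h replicate 1, 1 Hz 0 h replicate 3, 1 Hz 48 h replicate 2 or iTBS 48 h replicate 1 (0.91 to 1.25 over all such settings).

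Kcne2, the accessory subunit, was the member that fell at 48 h. Its arrays ran from 3.30 to 4.05 at 0 h (median 3.54, n = 11) and from 1.46 to 3.11 at 48 h (median 2.90, n = 11). These arrays did not overlap between the 2 times. With untreated controls they did, since replicate 4 of these was at 3.09 at 0 h. It was lower in 4 of 4 series, by -1.10 ± 0.30 (adjusted p = 0.042, limma), and within the series held at both times the mean change was -0.50 in sham (A, C and D), -1.07 in 1 Hz (B, C and D) and -1.41 in iTBS (all 4). The arms thus rest on different series, and B, where Kcne2 was at 3.90 at 0 h and 1.79 at 48 h, is missing from sham. A second Kcne2 probe fell by 0.82 and passed the test between times (adjusted p = 0.0080). The call at 48 h was lost without iTBS 0 h replicate 3, iTBS 24 h replicate 1, iTBS 48 h replicate 1 or iTBS 48 h replicate 4 (-1.18 to -1.01 over all such settings). Kcne2 is also known from the choroid plexus, and the choroid plexus list was at 3.01 at 0 h and 2.90 at 48 h.

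The remaining members of the 6 passed the test over times without a passing change at 48 h. Kcnt1, the sodium-activated channel gene, had a median of 4.34 over the arrays at 0 h (2.39 to 5.15) and 4.98 at 48 h (4.62 to 5.65), a change of 1.11 ± 0.27 at 24 h (adjusted p = 0.058, limma) and 0.94 ± 0.27 at 48 h (adjusted p = 0.051, limma), higher in 4 of 4 series. Kcnt1 passed at 48 h in 11 of 55 settings that left out 1 array. Its other probes gave 0.96 and 1.05 at 48 h and passed the test over times. Within the series held at both times its mean change at 48 h was 0.33 ± 0.31 in sham (SD, 3 series). It was 0.97 ± 0.78 in 1 Hz (3 series) and 1.30 ± 0.97 in iTBS (4 series). The lowest array at 0 h, at 2.39, was iTBS 0 h replicate 4. Kcnn4, an intermediate-conductance calcium-activated channel known mainly from blood cells and microglia, had medians of -1.97 at 0 h, -0.73 at 24 h and -0.98 at 48 h. Its changes were 1.03 ± 0.28 and 0.87 ± 0.28 (adjusted p = 0.078 and 0.075, limma). Within shared series the mean change at 48 h was 0.34 ± 0.40 in sham, 0.93 ± 0.07 in 1 Hz and 1.01 ± 0.70 in iTBS (SD). For neither gene did a difference between protocols pass. A second Kcnn4 probe, above background on 8 arrays, gave -0.02. Kcna1 was at 5.73 ± 0.74 at 0 h and 5.96 ± 0.97 at 2 h, and then at 5.02 ± 0.45 at 8 h, 4.91 ± 0.30 at 24 h and 5.20 ± 0.37 by 48 h (mean ± SD of 4 series), lower than at 0 h in 4 of 4 series at 8 and at 24 h.

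**Figure D4:**
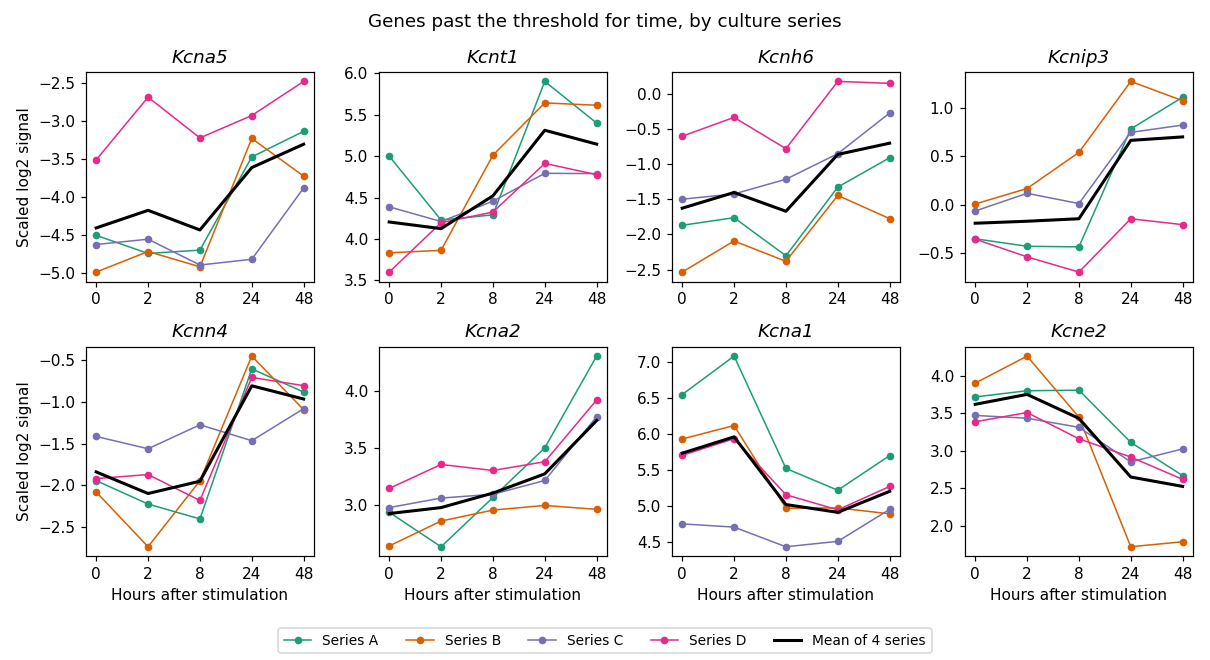
Mean scaled log2 signal (vertical axis) by time after stimulation, from 0 to 48 h (horizontal axis), of the 8 genes called in the test over times or at 48 h, with a coloured line per culture series and a black line for their mean. Kcnh6, Kcnip3, Kcnt1, Kcnn4, Kcna2 and Kcna5 lie higher at 48 h than at 0 h in 4 of 4 series, Kcne2 lower in 4 of 4, and Kcna1 lower at 24 h in 4 of 4.

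By subfamily, the 6 members past the test over times were 1 of 7 Kv1 genes, 1 of 8 Kcnh genes, 2 of 7 calcium- or sodium-activated genes and 2 of 12 auxiliary genes, and 0 in the others. At an unadjusted p under 0.05 the counts were 27 of 84 members and 20.4% of all probes, with 6 of 14 inward rectifiers, led by Kcnj11 (0.34 ± 0.18 at 8 h and -0.40 ± 0.18 at 48 h), the subunit of the ATP-sensitive channel, and 2 of 9 modifiers, led by Kcnv2 (0.70 ± 0.21 at 48 h). In the calcium- and sodium-activated subfamily 6 of 7 members were higher at 48 h, with a median change of 0.55 log2 units, among them Kcnn1 (0.55 ± 0.18) and Kcnn3 (0.70 ± 0.25), and Kcnma1 was lower (-0.68 ± 0.30), none of these past the threshold. The smallest p over times among the Kv3, Kv4, Kv7 and two-pore genes was that of Kcnc1, Kcnd1, Kcnq5 and Kcnk4, with changes at 48 h of -0.28 ± 0.14, 0.40 ± 0.15, -0.42 ± 0.18 and 0.59 ± 0.17. These calls rest on the 4 series together: without series D, or without series A, 0 members passed the test over times and 1 passed at 48 h, Kcnip3 without D (1.14, adjusted p = 0.048, limma) and Kcnh6 without A (0.91, adjusted p = 0.043, limma). With sham arrays alone 0 passed, and the count was 2 without 1 Hz 24 h replicate 1.

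Astrocyte markers moved with time as well. The mean of the 6 astrocyte genes was 5.99 at 0 h and 6.59 at 48 h, and 3 of 6 passed the test over times, among them Gfap (1.61 ± 0.40 at 48 h, adjusted p = 0.029, limma) and Aqp4 (1.07 ± 0.28, adjusted p = 0.037, limma). The mean of the neuronal list was 6.30 at 0 h and 6.11 at 48 h, and 0 of its 5 genes passed. Whether these shifts bear on the potassium channel genes was not tested.

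Genes that work beside the channels were taken from a fixed list of 29, of which 24 were tested. No gene of the list differed between a protocol and sham in any comparison, and 14 of 24 differed between series, where 48.4% of all probes did. Atp1b2, a beta subunit of the sodium-potassium pump, rose by 0.86 ± 0.18 at 48 h, in 4 of 4 series (adjusted p = 0.016, limma). The Kv4 partner Dpp6 was even over series (6.29 to 6.49) and times (0.05 ± 0.19 at 48 h). Singled out after its values were seen, Lgi1, a secreted partner of Kv1 complexes, was like Kcna1 highest in A and lowest in C, at 3.44 ± 0.26 and 2.40 ± 0.15.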

How the data were processed

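One Agilent rat array with a single dye had been hybridized per sample, 56 in all. The deposited scanner files of the authors hold a background-corrected intensity per spot and flags for spots above background, extracted with Feature Extraction 12.0.3.1 on a design of build rn4. The authors' series matrix holds a score per probe, a z-score within each array, used as an alternative. Differences from the log10 z-scores computed here were at most 0.005.

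The array of 1 Hz 2 h replicate 2, whose grid the software marked as bad, was left out, which left 55. Intensities were averaged as log2 values over the spots of a probe, turned into z-scores within each array and multiplied by the median SD, 4.06. The log2 scale was computed here from the deposited intensities. Probes well above background on fewer than 3 arrays were not tested, which left 35694. Symbols came from a RefSeq table (GRCr8) by accession.

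Groups were taken from titles, and series from the number in the description. Group means were fitted with limma 3.58.1 in R 4.3.3 without covariates. Series and time were fitted to 20 means of a series at a time over 51 arrays, without untreated controls. P-values were adjusted by Benjamini-Hochberg over all probes. The fits were tested on simulated data.

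The members, gene lists and tests were chosen with earlier results of these data known. Named were, in each subfamily, the members with the smallest p over series and over times, the members with the largest ranges among those that passed, the member with the smallest p of each protocol comparison, and a fixed list of well-known channel genes. Alternatives covered scaling, background correction, filters, probes, arrays left out and blocks. Promoter sequences are from RefSeq. Some genes enter the counts but are not reported here by name.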

Additional observations from a re-analysis of the deposited data

Results flagged for a closer look

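A value far from the others of its group was found in 5 of 91 groups of means or of single arrays, where chance alone gives about 1 in 20. All 5 were means, and the Kcnk15 and most of the Kcna5 signals behind them were not well above background. In series C, the mean of Kcnj13 at 1 time point was -1.10, against -0.82 to -0.75 at the others, and that of Kcnk15 was -4.77, against -4.42 to -4.30. Across the series, Kcna5 in series D stood above the others at 2 h, at -2.68 against -4.74 to -4.55, and at 8 h, at -3.22 against -4.91 to -4.69. Kcnt1 at 2 h was at 3.86 in series B, against 4.20 to 4.23 in the other series.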

How the results depend on the processing

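No member passed between a protocol and sham, or between untreated control and sham, under any alternative, leaving out 1 array included, apart from 44 members for 1 Hz at 2 h with all 56 arrays, and 0 to 1 there when 1 array was left out (Kcnab2 without 1 Hz 2 h replicate 1). The Kcnab2 difference there was -0.28 to 2.91 over arrays left out. With the replicate block these counts were 0 too. Replicate numbers do not pair the arrays, since 22 of 35 pairs compared with sham had deviations that correlated above 0.1. For arrays of 1 culture series it was 33 of 34 pairs (mean r 0.51), and with the series as a block 0 members passed for any protocol or for untreated control.

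Counts of members that passed between series or times moved as follows. With all 56 arrays, the count was 21 for the test between series, 1 for B against A, 4 for C against A, 14 for D against A, 0 for C against B, 21 for D against B, 17 for D against C, and 0 for times, for 24 h and for 48 h, and Kcnh3 in D against A turned to 0.070. Single arrays in place of means count arrays of 1 series and time as independent. They gave 25 for B against A, 32 for C against A, 40 for D against A, 20 for C against B, 35 for times, 4 at 8 h, 12 at 24 h and 35 at 48 h. With the replicate block on single arrays the counts were 21 for B against A, 17 for C against B, 24 for D against B, 36 for times, 3 at 8 h, 14 at 24 h and 36 at 48 h. With the slide as a block they were 1 for B against A, 17 for C against B, 29 for times, 10 at 24 h and 26 at 48 h. Sham arrays alone gave 2 for B against A, 11 for C against A, 10 for D against A, 3 for C against B and 0 for times, 24 h and 48 h. Without a series term, 0 passed for times, 24 h and 48 h. Without series D, the counts were 12 between series, 4 for C against B, 0 for times, 0 at 24 h and 1 at 48 h, and without series A 0 for times, 0 at 24 h and 1 at 48 h. At 24 h, normexp background gave 0, the deposited z-scores 1, no filter 1 and every probe of a gene 4. No filter gave 5 for B against A, and a filter on every array 9 at 48 h.

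Leaving out 1 array gave 43 to 48 between series, 5 to 12 for B against A, 2 to 8 for times, 0 to 3 at 24 h (moved in 22 of 55 settings) and 3 to 7 at 48 h (moved without 1 Hz 48 h replicate 2). The alternatives of normexp on the median spot signal, of the slide with single arrays and of leaving out series D or A were chosen after seeing the data. Other moves were not tested for a cause.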
